A study of Mus musculus with 6 samples.

Results

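Tetraspanins are small membrane proteins that cross the membrane 4 times and gather partner proteins, such as integrins, immunoglobulin-type receptors and proteases, into shared patches of the cell surface. Several also sit in the membranes of endosomes and of the vesicles that cells release, and CD9, CD63 and CD81 are widely used as markers of those vesicles. In macrophages, CD9 and CD81 are known to restrain the fusion of cells into multinucleated giant cells, and CD37 and CD53 are largely restricted to leukocytes. The genes described here are 10 tetraspanin genes that macrophages express (Cd9, Cd63, Cd81, Cd82, Cd37, Cd53, Cd151, Tspan3, Tspan4 and Tspan14), found by symbol among 55421 genes of the deposited count table. All 10 had 1 row each and all 10 passed the filter on low counts.

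The cells were wild-type (WT) primary mouse macrophages grown from bone marrow with 20 ng/mL M-CSF, the growth factor that drives macrophage differentiation, and 10% FBS. The labels give no strain, age or number of mice, and do not say whether replicates came from separate animals or cultures. Untreated samples (3) were kept in fresh RPMI-1640 medium with these supplements, and 3 samples were kept for 24 h in an equal mixture of it (50%) and LL-2 conditional medium, taken from a mouse Lewis lung carcinoma line. No medium from another cell was analysed here, and the mixture also held less fresh medium, so these effects cannot be told apart. Total counts were 24179548 to 25916709 in the untreated and 28447825 to 30040682 in the conditioned-medium libraries. Macrophage markers were present in every sample (10 genes with a summed level of 51861 to 61064 CPM, counts per 1000000 of the TMM-scaled library total, in untreated and 58441 to 62930 CPM in conditioned-medium samples). A principal component with 17.9% of the variance set the samples numbered 3 of both groups apart from the others.

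In conditioned medium most of these transcripts were lower and 1 was higher. Of the 10 genes, 7 fell (Cd9, Cd37, Cd82, Cd53, Tspan4, Cd63 and Cd151), 1 rose (Cd81), and Tspan3 and Tspan14 did not pass the threshold (edgeR quasi-likelihood test, adjusted p under 0.05 over all genes tested). Of 13853 genes tested, 27.9% passed, 15.2% lower and 12.6% higher. Abundant genes passed more often. Of the 3925 genes with at least the mean level of the least abundant member, 43.3% passed, and 24.4% of the 3925 passed as lower. The median log2 fold change of the 10 genes, conditioned medium minus untreated, was -0.28, against 0.013 over all genes tested. The groups did not overlap for 8 of the 10 genes, against 42.8% of all genes tested. That share and the median of 0.013 cover genes of all levels and were not matched to the members' abundance. Without scaling beyond the total count, 6 members fell and 2 rose, Tspan14 then passing, and over all genes the share of calls that were higher was 60.8% in place of 45.3%. In bulk RNA, fewer cells of a type and less RNA per cell cannot be told apart.

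**Figure D1:**
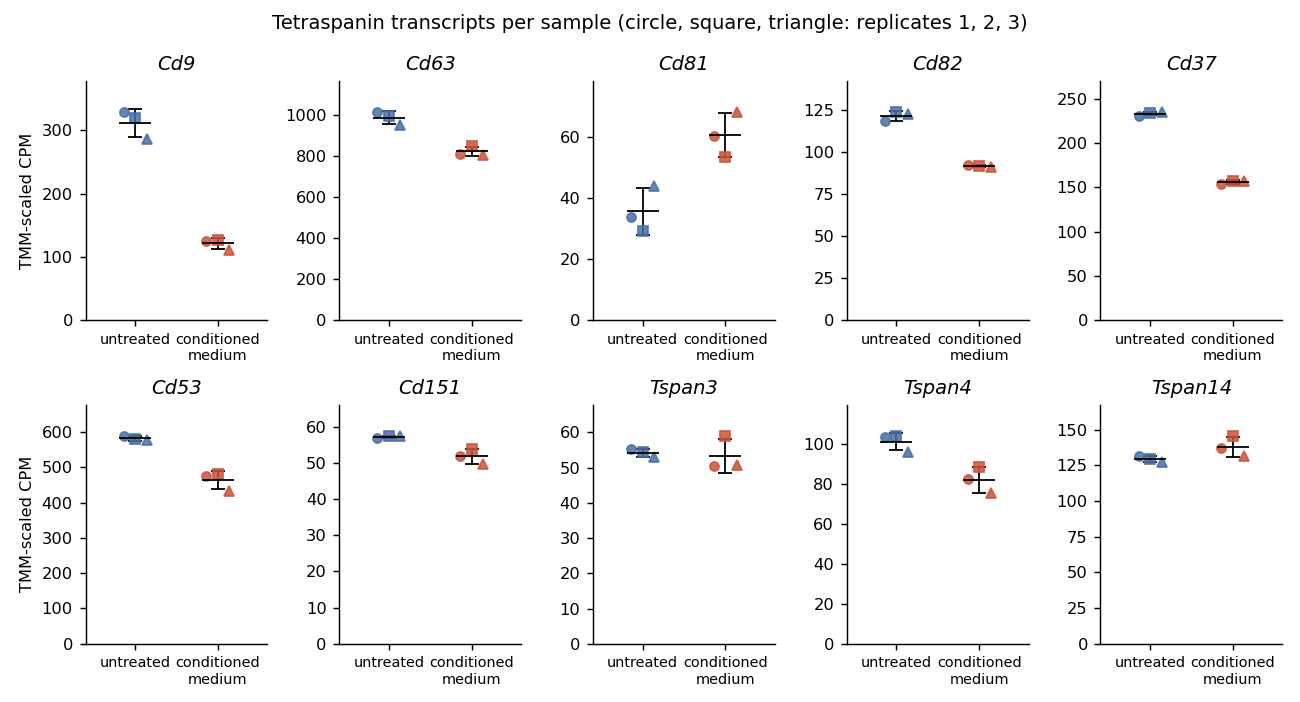
TMM-scaled CPM (vertical axes, from 0) of the 10 tetraspanin transcripts in 3 untreated samples (blue) and 3 conditioned-medium samples (red). Symbols mark the replicate number and bars the mean and SD. Every conditioned-medium sample lies below every untreated sample for 7 genes and above for Cd81, while Tspan3 and Tspan14 overlap.

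Cd9 and Cd81, a pair of closely related tetraspanins that share partners such as the immunoglobulin-type protein EWI-2, moved in opposite directions. Cd9 (ENSMUSG00000030342, chromosome 6, 125460266 to 125494791, minus strand, GRCm38) stood at 329, 319 and 286 CPM in untreated replicates 1, 2 and 3 and at 126, 127 and 111 CPM in the conditioned-medium samples. The groups were far apart, and the sample numbered 3 was the lowest of each group. The means were 312 ± 22.5 and 121 ± 9.02 CPM (SD, n = 3 per group), a 2.57-fold fall (log2 fold change -1.36, SE 0.07, adjusted p = 1.99e-06). Among the 3925 genes at or above the mean level of the least abundant member, 25 had a lower log2 fold change than Cd9.

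Cd81, whose protein is a common marker of released vesicles (ENSMUSG00000037706, chromosome 7, 143052739 to 143067934, plus strand), stood at 33.8, 29.0 and 43.8 CPM in untreated and at 60.3, 53.4 and 68.0 CPM in conditioned-medium samples. Each conditioned-medium sample lay above each untreated sample, and here the sample numbered 3 was the highest of each group. The mean went from 35.5 ± 7.55 to 60.6 ± 7.29 CPM, a 1.70-fold rise (log2 fold change 0.77, SE 0.14, adjusted p = 0.00278). Without both libraries numbered 3 the log2 fold change was 0.86 for Cd81 (adjusted p = 1.77e-05) and -1.36 for Cd9 (adjusted p = 9.17e-09).

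Levels of different genes were set side by side as TPM, counts per kilobase of exon scaled to a total of 1000000 in each library. The ratio of Cd9 to Cd81 on the TPM scale was 13.7, 15.5 and 9.21 in untreated samples and 2.94, 3.35 and 2.30 in conditioned-medium samples. Cd9 thus stayed the more abundant of the pair in each sample. The sum of both went from 477 ± 33.0 to 243 ± 6.97 TPM, so that on this scale Cd81 gained less than Cd9 lost.

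**Figure D2:**
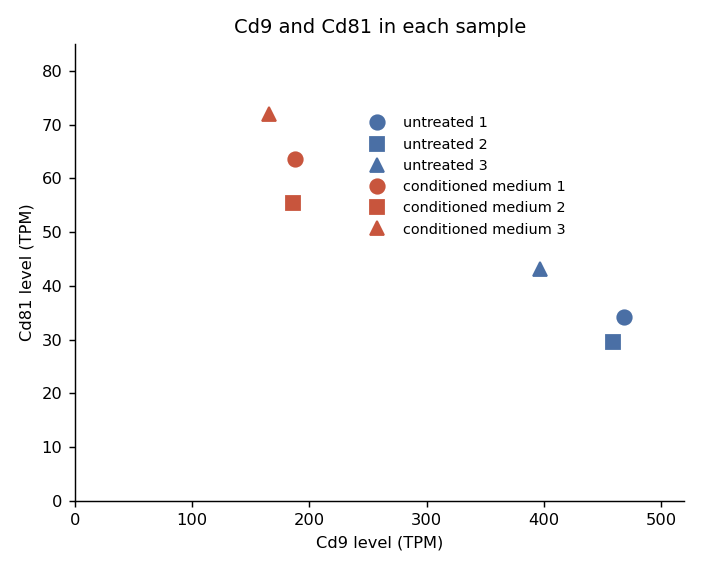
Level of Cd81 (vertical axis, TPM) against Cd9 (horizontal axis, TPM) in each of the 6 samples, blue for untreated and red for conditioned medium. Untreated samples lie at 397 to 469 TPM of Cd9 and 29.6 to 43.1 TPM of Cd81, and conditioned-medium samples at 165 to 187 and 55.5 to 72.0 TPM.

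The start regions of the 10 genes were read from RefSeq (GRCm38.p6), as windows of 250 bases before and 50 after each annotated start. There were 16 windows, since Cd82, Cd151, Tspan4 and Tspan14 have several. Cd9 and Cd81 are printed because they moved most and in opposite directions, and Cd53 because it was the most abundant member and is leukocyte-restricted. Capitals mark GGGCGG (the GC box bound by Sp factors), GAGGAA (the core bound by the myeloid factor PU.1) and TATAAA, searched on both strands, so that GAGGAA on the opposite strand reads TTCCTC here.

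Cd9: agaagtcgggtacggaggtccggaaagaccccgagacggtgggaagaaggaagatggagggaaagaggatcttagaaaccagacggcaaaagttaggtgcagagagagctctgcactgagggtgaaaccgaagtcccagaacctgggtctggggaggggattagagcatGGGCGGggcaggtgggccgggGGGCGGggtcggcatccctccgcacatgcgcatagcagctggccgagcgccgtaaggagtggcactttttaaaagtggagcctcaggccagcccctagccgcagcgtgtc
Cd81: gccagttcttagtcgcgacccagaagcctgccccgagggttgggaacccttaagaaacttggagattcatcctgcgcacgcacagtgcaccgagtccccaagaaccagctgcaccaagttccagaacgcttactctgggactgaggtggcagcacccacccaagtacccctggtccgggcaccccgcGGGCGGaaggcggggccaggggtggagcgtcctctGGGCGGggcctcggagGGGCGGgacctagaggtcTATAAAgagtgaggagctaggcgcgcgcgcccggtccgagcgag
Cd53: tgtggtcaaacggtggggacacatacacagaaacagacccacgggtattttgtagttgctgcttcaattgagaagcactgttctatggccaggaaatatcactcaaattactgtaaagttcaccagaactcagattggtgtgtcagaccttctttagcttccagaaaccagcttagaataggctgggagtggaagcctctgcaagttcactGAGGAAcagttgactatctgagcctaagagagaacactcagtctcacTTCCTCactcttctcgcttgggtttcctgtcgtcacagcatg

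The Cd9 window (chr6:125494711-125495010, minus strand) held 2 GC boxes and no PU.1 core. The Cd81 window (chr7:143052500-143052799, plus strand) held 3 GC boxes, and TATAAA starting at base 7 of the transcript. The Cd53 window (chr3:106790100-106790399, minus strand) held 2 PU.1 cores and no GC box. Of the 16 windows, 8 held a GC box and 6 a PU.1 core, against 35.7% and 28.3% of 32851 RefSeq windows of that length. The genes with a PU.1 core were Cd63, Cd82, Cd37, Cd53 and Tspan14, of which 4 fell, beside 7 of all 10 members. A link between these letters and the direction of change was not tested. GC boxes stood in the windows of genes that fell (Cd9, Cd37, Cd82, Cd151 and Tspan4), of Cd81 and of Tspan14. These matches describe letters in the windows and are not evidence of binding.

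Cd37, Cd53 and Cd82 fell by smaller amounts than Cd9, with little spread among samples for Cd37 and Cd82. Cd37, whose protein steadies the fungal receptor dectin-1 at the surface (ENSMUSG00000030798, chromosome 7, 45233632 to 45239115), stood at 231, 234 and 235 CPM untreated and 153, 158 and 158 CPM in conditioned medium. It was 1.49-fold lower (log2 fold change -0.58, SE 0.04, adjusted p = 9.55e-06), and its samples differed little within each group. Cd53, a broad leukocyte tetraspanin (ENSMUSG00000040747, chromosome 3, 106759921 to 106790149), stood at 589, 581 and 576 CPM untreated and 474, 482 and 434 CPM in conditioned medium. It was 1.26-fold lower (log2 fold change -0.33, SE 0.05, adjusted p = 0.00108). Cd82, known as the metastasis suppressor KAI1 (ENSMUSG00000027215, chromosome 2, 93419111 to 93463140), stood at 119, 124 and 122.6 CPM untreated and 92.6, 91.9 and 90.9 CPM in conditioned medium. It was 1.32-fold lower (log2 fold change -0.41, SE 0.04, adjusted p = 8.99e-05). For each of these 3 genes the groups did not overlap.

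Cd63, the tetraspanin of late endosomes, lysosomes and released vesicles (ENSMUSG00000025351, chromosome 10, 128900989 to 128912822), was abundant and fell slightly. It stood at 1016, 997 and 954 CPM in untreated and 811, 852 and 809 CPM in conditioned-medium samples, 1.2-fold lower (log2 fold change -0.26, SE 0.05, adjusted p = 0.00230). Its groups did not overlap.

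Tspan4, which is known for its place in migrasomes, the vesicles that migrating cells leave on their trail (ENSMUSG00000025511, chromosome 7, 141475240 to 141493427), stood at 103, 104 and 96.2 CPM untreated and 82.5, 88.5 and 75.3 CPM in conditioned medium. It was 1.23-fold lower (log2 fold change -0.30, SE 0.06, adjusted p = 0.00635), with the sample numbered 3 the lowest of each group. Tspan4 shares 13.4% of its exon bases with Chid1 on the opposite strand (6061 counts over the 6 samples, against 14793 for Tspan4), and with no strand setting stated its counts are uncertain. Other members share exon bases with scarcer genes on the opposite strand: Cd9 10.7% with Gm26728 (7 counts), Cd151 7.04% with Gm10575 (163 counts), Cd81 3.61% with R74862 (61 counts) and Cd37 0.369% with Tead2 (110 counts).

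Cd151, a partner of laminin-binding integrins (ENSMUSG00000025510, chromosome 7, 141467392 to 141471473), stood at 56.8, 57.4 and 57.3 CPM untreated and 51.8, 53.9 and 49.7 CPM in conditioned medium. The groups did not overlap, but the fall was small at 1.10-fold (log2 fold change -0.14, SE 0.05, adjusted p = 0.0471). Its call was lost with DESeq2 (adjusted p = 0.116), without scaling (0.192), without the low-count filter (0.193), without both libraries numbered 3 (0.134), and when any 1 library other than conditioned-medium replicate 2 was left out (0.0902 to 0.132).

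Tspan14 belongs to the TspanC8 subgroup, which escorts the protease ADAM10 to the surface (ENSMUSG00000037824, chromosome 14, 40906445 to 40966807). It stood at 132, 129 and 128 CPM untreated and 137, 146 and 132 CPM in conditioned medium, so that the groups touched. Its log2 fold change was 0.09 (95% interval -0.015 to 0.20, adjusted p = 0.188, and 0.0394 without scaling beyond the total count). Tspan3, a broadly expressed tetraspanin (ENSMUSG00000032324, chromosome 9, 56131725 to 56165477), stood at 55.2, 54.3 and 53.0 CPM untreated and 50.4, 59.0 and 50.7 CPM in conditioned medium. The untreated samples lay within the range of the conditioned-medium samples, and the log2 fold change was -0.021 (95% interval -0.17 to 0.13, adjusted p = 0.845), its sign turning without scaling.

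Per length, Cd53 and Cd63 dominated the family in both media. In untreated samples the levels ran Cd53 967 ± 26.1, Cd63 777 ± 38.0, Cd9 441 ± 39.0, Cd37 192 ± 2.97, Tspan14 142 ± 4.46, Tspan4 135 ± 8.19, Cd82 117 ± 3.37, Cd151 60.4 ± 1.13, Tspan3 36.7 ± 1.32 and Cd81 35.6 ± 6.88 TPM. Tspan14 and Tspan4 overlapped in that order, as did Tspan3 and Cd81. In conditioned medium Cd9 was still in the third place at 179 ± 12.3 TPM, Tspan14 stood above Cd37 at 158 ± 6.37 against 134 ± 1.98 TPM, and Cd81 at 63.7 ± 8.24 TPM overlapped Cd151 at 57.2 ± 1.81 TPM. The summed level of the 10 genes was 2977, 2961 and 2771 TPM untreated and 2342, 2373 and 2244 TPM in conditioned medium. Within that sum the share of Cd9 went from 15.2% ± 0.761 to 7.73% ± 0.325, that of Cd81 from 1.23% ± 0.288 to 2.76% ± 0.436, and that of Tspan14 from 4.88% ± 0.0434 to 6.80% ± 0.111.

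**Figure D3:**
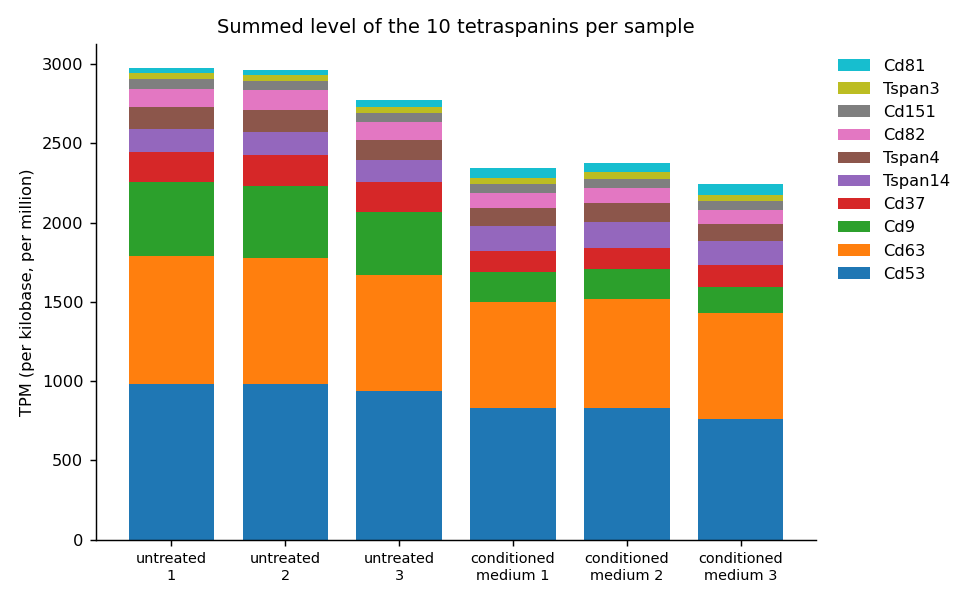
Stacked bars of the level of each of the 10 tetraspanins (vertical axis, TPM from 0) in each sample. The sum lies at 2771 to 2977 TPM in untreated and 2244 to 2373 TPM in conditioned-medium samples, and the Cd9 segment shows the widest change.

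The rest of the family was scarcer. The table held 21 other tetraspanin genes, and the 10 described above made up 92.4% to 94.4% of the family's summed TPM in each sample. Of the 21, 12 were tested in the main fit, and 4 of these fell, 1 rose and 7 did not pass. Blocked by replicate number, 5 fell and 1 rose. The median log2 fold change of the 12 was -0.10. Over all genes tested, 15.2% passed as lower and 12.6% as higher without the block. With it, 2668 of all 13853 genes tested passed as lower and 2355 as higher. Tspan32, a tetraspanin of blood cells (chromosome 7, 143005046 to 143019644), rose. It stood at 12.9, 9.70 and 14.8 CPM untreated and 18.9, 18.8 and 22.6 CPM in conditioned medium, and the groups did not overlap. The log2 fold change was 0.69 (SE 0.14, adjusted p = 0.00572), and its sample numbered 3 was the highest in both groups, as for Cd81.

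Tspan7, which fell 2.60-fold, stood at 3.81, 3.84 and 3.29 CPM untreated and 1.38, 1.81 and 0.998 CPM in conditioned medium (log2 fold change -1.38, SE 0.23, adjusted p = 0.00182). The other 3 that fell belong to the TspanC8 subgroup. Tspan10 went from 4.02 ± 0.240 to 1.73 ± 0.297 CPM (adjusted p = 0.00100), Tspan33 from 1.73 ± 0.509 to 0.800 ± 0.115 CPM (0.0191) and Tspan5 from 22.0 ± 2.06 to 18.2 ± 1.5 CPM (0.0454). The call of Tspan33 was lost without untreated replicate 1 (adjusted p = 0.0845), untreated replicate 2 (0.0560) or conditioned-medium replicate 1 (0.0771). That of Tspan5 was lost without those libraries (0.154, 0.0874 and 0.153), without conditioned-medium replicate 3 (0.116) and without scaling (0.104), so that leaving out untreated replicate 1, untreated replicate 2 or conditioned-medium replicate 1 left 3 of the 5 calls.

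Of the 7 genes that did not pass, the most abundant per length were Tspan31, Tspan17 and Tspan13. Tspan31 had a log2 fold change of 0.13 (adjusted p = 0.118) and passed without scaling (0.0210), without both libraries numbered 3 (0.0200) and without untreated replicate 3 (0.0491). It shares 29.2% of its exon bases with Cdk4 on the opposite strand (16685 counts over the 6 samples, against 10970 for Tspan31). With no strand setting stated, the Tspan31 counts are uncertain. Tspan17, another TspanC8 gene, had a log2 fold change of -0.058 (adjusted p = 0.680). Tspan13 had a log2 fold change of -0.47 (adjusted p = 0.0569). It passed with the replicate number as a block (0.00143), with DESeq2 (0.0281), without the low-count filter (0.0110), without untreated replicate 3 (0.0340), without conditioned-medium replicate 2 (0.0297) and without both libraries numbered 3 (0.0212). The remaining 9 genes were too scarce for the low-count filter of the main fit, with 0 (Upk1b) to 38 (Tspan6) counts over the 6 samples. Tspan6 had 3, 5 and 1 counts untreated and 12, 10 and 7 in conditioned medium.

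**Figure D4:**
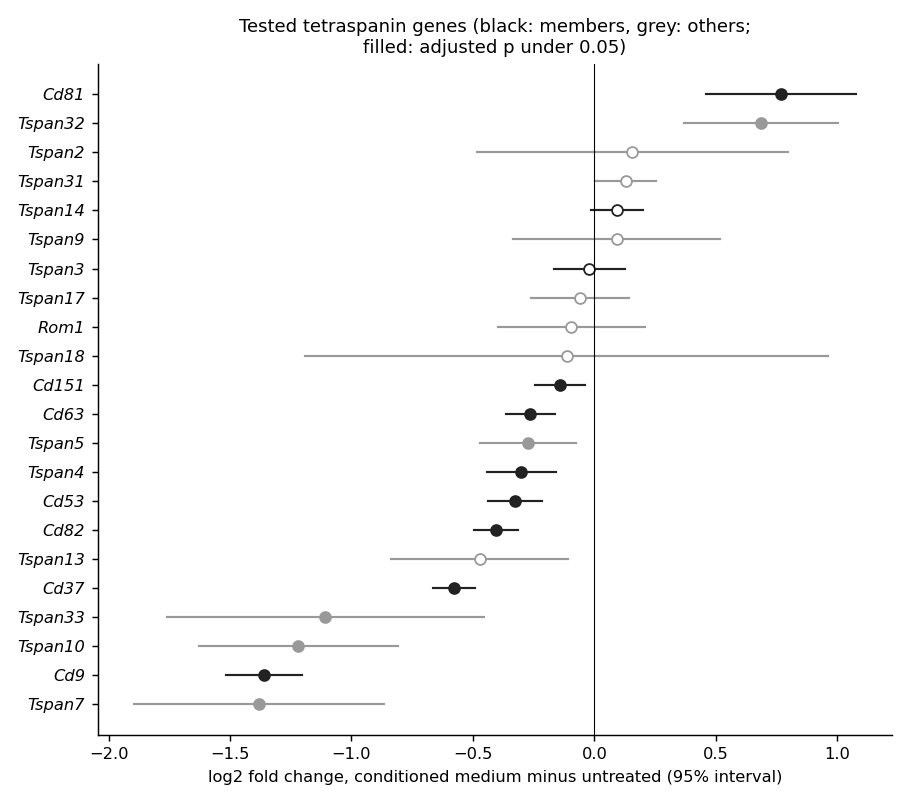
Log2 fold change (horizontal axis, conditioned medium minus untreated) with its 95% interval for the 22 tested tetraspanin genes, members in black and others in grey, filled where the adjusted p is under 0.05. Cd81 and Tspan32 stand apart on the right, and Tspan7, Cd9, Tspan10 and Tspan33 on the left.

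Genes of lists drawn up around tetraspanin partners, compartments and processes moved in both directions. Together the lists of partners, vesicle machinery, lysosome membrane proteins, cell fusion genes and TspanC8 genes held 72 different tested genes. In all 36 changed, beside 27.9% of all genes tested and 43.3% of those at or above the level of the least abundant member. The TspanC8 genes among them (Tspan5, Tspan10, Tspan14, Tspan17 and Tspan33) are tetraspanins already counted above. Of 20 tested partner genes, 2 rose and 8 fell (blocked by replicate number, 5 and 9), with a median log2 fold change of -0.14. With that block, 2355 of all 13853 genes tested rose and 2668 fell. Clec7a, encoding dectin-1, the receptor that CD37 steadies, went from 426 ± 81.1 to 161 ± 41.0 CPM (adjusted p = 0.000555). Itga5, encoding the fibronectin receptor chain, went from 107 ± 1.92 to 67.7 ± 1.54 CPM (adjusted p = 6.32e-06). Vcam1, an adhesion receptor gene, rose from 30.3 ± 0.597 to 75.6 ± 2.49 CPM (adjusted p = 3.14e-07). Cd14, the endotoxin coreceptor gene and the most abundant of the list per length, had a log2 fold change of 0.16 (adjusted p = 0.243). It passed with the replicate block (0.00399), without untreated replicate 3 (0.0335) and without both libraries numbered 3 (0.00941).

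A few partners were chosen after their values were seen, for their direct ties to members. Igsf8, encoding EWI-2, fell from 118 ± 3.71 to 97.4 ± 2.98 CPM (adjusted p = 0.00165). Adam10, the protease that TspanC8 proteins escort, stood at 164 ± 3.77 and 167 ± 3.63 CPM (log2 fold change 0.025, adjusted p = 0.705). Sdcbp, encoding syntenin, which binds CD63 during vesicle formation, fell from 1006 ± 13.2 to 833 ± 57.0 CPM (adjusted p = 0.00521). The TspanC8 subgroup had 5 tested genes, of which 3 fell (Tspan5, Tspan10 and Tspan33) and 0 rose in edgeR. Over all genes tested, 15.2% fell and 12.6% rose. In the subgroup 1 gene, Tspan10, passed without untreated replicate 1, untreated replicate 2 or conditioned-medium replicate 1.

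Of 24 genes of vesicle formation and release, 3 rose and 6 fell (blocked, 3 and 8), with a median log2 fold change of -0.012. The share past the threshold was 27.9% over all genes tested and 43.3% at or above the level of the least abundant member, both unblocked. With the block, 2355 of all 13853 genes tested rose and 2668 fell. Mfge8, encoding a vesicle-associated protein that bridges dying cells to phagocytes, went from 637 ± 171 to 187 ± 59.8 CPM (adjusted p = 0.000853). Chmp4b, encoding a subunit of the membrane-cutting ESCRT machinery, went from 320 ± 14.8 to 261 ± 7.15 CPM (adjusted p = 0.00166). Smpd2, a neutral sphingomyelinase gene, had a log2 fold change of 0.30 (adjusted p = 0.0144, and 0.0715 without both libraries numbered 3). Smpd2 shares 20.3% of its exon bases with Mical1 on the opposite strand (5383 counts over the 6 samples, against 2153 for Smpd2). With no strand setting stated, the Smpd2 counts are uncertain. Rab7, a late endosome GTPase gene, had a log2 fold change of 0.030 (adjusted p = 0.661).

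Of 15 genes of lysosomal membrane proteins, the compartment that CD63 shares, 4 rose and 3 fell (blocked, 4 and 5), with a median of -0.044. Beside this, 27.9% of all genes tested passed unblocked, and 43.3% of those at or above the level of the least abundant member. With the block, 2355 of all 13853 genes tested rose and 2668 fell. Cd68 fell from 1356 ± 24.4 to 859 ± 62.1 CPM (adjusted p = 3.93e-05). Sidt2 and Ctns, the cystine exporter gene, rose by log2 fold changes of 0.32 and 0.22 (adjusted p = 0.00178 and 0.00990). Lamp1, the most abundant of the list per length, had a log2 fold change of 0.067 (adjusted p = 0.322, and 0.0449 without scaling).

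Of 10 tested genes of macrophage fusion, the process that CD9 and CD81 restrain, 2 rose and 6 fell (blocked, 3 and 6), with a median of -0.18. Among all genes tested 27.9% passed unblocked, and 43.3% among those at or above the level of the least abundant member. With the block, 2355 of all 13853 genes tested rose and 2668 fell. Dcstamp, encoding a receptor-like protein needed for fusion, went from 4.43 ± 0.487 to 0.839 ± 0.366 CPM (adjusted p = 0.000265). Atp6v0d2, encoding a proton pump subunit of fusing cells, went from 263 ± 71.5 to 97.8 ± 39.2 CPM (adjusted p = 0.00570). Trem2, a lipid-sensing receptor gene, went from 651 ± 37.8 to 392 ± 25.2 CPM (adjusted p = 3.30e-05). Tyrobp, encoding its signalling adaptor, had a log2 fold change of -0.16 (adjusted p = 0.0226). Its call was lost without scaling (0.0837), without untreated replicate 1 (0.0641) or 2 (0.0839), and without conditioned-medium replicate 1 (0.0841) or 3 (0.0504).

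**Figure D5:**
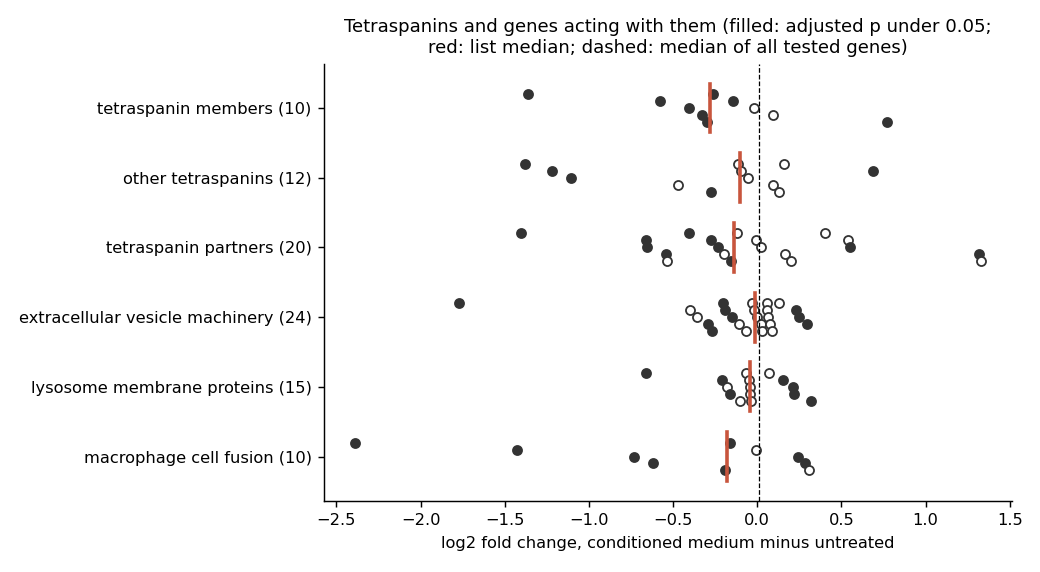
Log2 fold change (horizontal axis, conditioned medium minus untreated) of each tested gene by list, filled where the adjusted p is under 0.05, with the list median in red and the median of all tested genes, 0.013, as a dashed line. The medians lie between -0.28 for the members and -0.012 for vesicle machinery.

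Markers of other cell types that a bone marrow culture can hold were measured beside these changes, and those of mast cells and dendritic cells were lower in conditioned medium. Mast cell and basophil markers, whose cells carry much CD63 and CD9, fell in 5 of 6 tested genes and rose in 1. Their 8 genes summed to 24.2 to 31.4 CPM untreated and 13.6 to 18.9 CPM in conditioned medium. Dendritic cell markers fell in 4 of 7 tested genes (blocked, 5), with sums of 23.3 to 33.4 and 12.3 to 18.5 CPM. These 2 sums did not overlap between the groups. Over all genes tested, 15.2% passed as lower and 12.6% as higher. With the block, 2668 of all 13853 genes tested passed as lower and 2355 as higher. The 10 macrophage markers moved too, as 4 rose and 3 fell (blocked, 5 and 3).

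The sums of the other marker lists overlapped between the groups. For the unblocked counts that follow, the shares over all genes tested were again 15.2% lower and 12.6% higher. For the blocked counts, 2668 of all 13853 genes tested were lower and 2355 higher. B cell markers, of a lineage rich in CD37, fell in 1 of 6 tested genes, with sums of 14.8 to 18 and 11.6 to 17.7 CPM. Megakaryocyte and platelet markers, of a lineage rich in CD9, rose in 1 of 7 tested genes and fell in 0 (edgeR; blocked, 1 and 3), with sums of 135 to 224 and 131 to 282 CPM and Gp1bb at 0 in every sample. Endothelial markers rose in 3 of 5 tested genes and fell in 1, and neutrophil markers rose in 2 of 10 and fell in 2 (blocked, 6 and 3). In edgeR 0 of 7 stromal genes and 0 of 3 T and NK cell genes passed (blocked, 5 stromal genes rose, and 1 T and NK cell gene rose and 1 fell). Epithelial carcinoma markers were almost absent, with sums of 0.836 to 1.24 and 0.688 to 1.44 CPM and Cldn4 at 0 in every sample. No LL-2 cells were analysed here, so whether they express these markers was not tested. The part of other cells in the tetraspanin changes was not tested.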

How the data were processed

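RNA from 6 samples (3 untreated, 3 in conditioned medium, grouped by sample title) was sequenced after oligo(dT) enrichment, per the labels' protocols. The authors deposited whole-number counts per gene, made with HISAT2 and featureCounts on GRCm38 per the submitters' processing notes. For their versions, strand setting and annotation release, no source used here gives a value. Of 55421 genes, 55154 were given symbols from a reference table by Ensembl identifier. Overlaps of exons came from the exon positions deposited with the counts, and gene types from GENCODE M21. The deposited table also gives the exon length in bases, used only for TPM.

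Genes kept by filterByExpr were scaled by TMM and compared with edgeR's quasi-likelihood test, the group alone in the design (edgeR 4.0.16, limma 3.58.1, R 4.3.3). P-values were adjusted by Benjamini-Hochberg over all 13853 tested genes. Standard errors were derived from the F statistic. The scripts were tested on simulated data. Replicate libraries were not copies of each other (chi-square per degree of freedom 3.9 to 15.3). At this depth a count of 0 allows up to 3 counts, or 0.0999 to 0.124 CPM, for counting error only.

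Deviations from group means correlated at 0.328, 0.161 and 0.309 between samples of the same number (13853 genes), so the numbers were taken to pair the samples. No label says what a number stands for or that samples came from separate mice, so p-values measure the spread between samples, which may be technical. The main fit left this pairing out, and values not called blocked come from it. With the block the SE was 0.055 in place of 0.14 for Cd81, and 0.039 in place of 0.07 for Cd9. Their log2 fold changes were then 0.78 and -1.36. Blocked values are given beside a list or named gene where they change a call.

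The members and gene lists were chosen with earlier results of these data known. Text names all members, other tetraspanins past the threshold and the 3 most abundant that missed it, and for each further list the 3 largest changes past the threshold and the gene highest per length. Igsf8, Adam10 and Sdcbp were added after their values were seen. The fit was repeated with DESeq2 1.42.0 and with limma-voom, with RLE scaling or none, with no filter or one at 1 CPM, blocked by replicate number, and without each library or both numbered 3. Protein comparisons planned for the members were not run.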

Additional observations from a re-analysis of the deposited data

How the results depend on the processing

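The 3861 changed genes lay between 2725 and 5023 over all alternatives, the upper count with the replicate block. Cd9, Cd63, Cd82, Cd37, Cd53, Tspan4 and Cd81 kept their direction and stayed past the threshold in all 14 alternatives. The count of changed members was 7 or 8 in each, Cd151 accounting for the lost calls, and the count of higher members was 2 without scaling beyond the total count, against 1. Leaving out 1 library gave 3 to 7 changed genes among the other tetraspanins, against 5. With the replicate block 8 members and 6 other tetraspanins changed. On the further lists together, TspanC8 genes included, 45 changed, against 36. The block changed no call of a named gene other than Tspan13 and Cd14. Tspan3 turned sign without scaling (log2 fold change 0.036) and ranged from -0.11 to 0.017 when 1 library was left out. Tspan17 likewise came to 0.0015 without scaling and to -0.13 to 0.029 with 1 library left out. The causes of these moves were not tested. At this depth the 9 scarcest tetraspanins, at 0 to 38 counts over the 6 samples, were removed from the main fit by its low-count filter.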

Other observations

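Both tetraspanin genes that passed the threshold as higher, Tspan32 and Cd81, lie side by side on chromosome 7, with a gap of 33.1 kb and 0 annotated protein-coding genes wholly between them. Cd151 and Tspan4, which both fell, lie 3.77 kb apart on the same chromosome with 1 protein-coding gene between them, and Cd82, which fell, lies 84.6 kb from Tspan18, which did not pass the threshold (log2 fold change -0.11, adjusted p = 0.886). Within each group the ratio of Cd9 to Cd81 on the TPM scale was lowest in the sample numbered 3, at 9.21 among untreated and 2.30 among conditioned-medium samples. The next lowest ratios were 13.7 and 2.94. These pairs were noticed after the values were seen and were not tested.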
